A study of Mus musculus with 16 samples.

Results

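The miR-146 family in the mouse is represented on the array by 3 mature miRNAs, namely miR-146a-5p, miR-146b-5p and miR-146b-3p. They were taken by name, as every row of the scanner files whose systematic name begins with mmu-miR-146a or mmu-miR-146b, and they are 3 of the 611 mouse miRNAs measured. Both -5p strands were detected on all 16 arrays and were among the 266 miRNAs tested. MiR-146b-3p was not tested, because it was detected on 1 array.

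MiR-146a and miR-146b are transcribed from separate genes, but their -5p strands share a seed, the stretch at the 5′ end of a miRNA that sets most of its target choice. Both are known as negative feedback regulators of innate immune signalling. Transcription of miR-146a is induced by NF-κB, the transcription factor activated by Toll-like receptors and the interleukin-1 receptor. The mature strand represses IRAK1 and TRAF6, signalling proteins of the same pathway. Glucocorticoids such as dexamethasone are known to repress many NF-κB-dependent genes.

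The mature sequences are shown because the near identity of both -5p strands bears on every comparison between them. Bases 2 to 8, the seed, are in capitals, and the sequences are those of RefSeq on build GRCm38.p6.
miR-146a-5p: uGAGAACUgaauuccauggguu
miR-146b-5p: uGAGAACUgaauuccauaggcu
miR-146b-3p: gCCCUAGGgacucaguucuggu
The -5p strands are identical at 20 of 22 positions. Counted from 1 at the 5′ end of miR-146a-5p, they differ by G18A and U21C, both outside the seed. Of the 1679 mature mouse miRNAs in the RefSeq table, 2 carry this seed, and both were on the array. MiR-146a-5p lies at chr11:43374435-43374456 on the minus strand in the gene Mir146, which overlaps no other listed gene and has Atp10b and Gm5782 as its neighbours. MiR-146b-5p lies at chr19:46342790-46342811 and miR-146b-3p at chr19:46342828-46342849, both on the plus strand in Mir146b. That gene overlaps Gm36493 and lies between Cuedc2 and 2310034G01Rik. The opposite strand of miR-146a was not on the array.

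Total RNA of whole lungs was hybridised to Agilent 1-colour miRNA arrays, with 2 arrays of PBS/PBS, 4 of PBS/OVA, 6 of OVA/OVA and 4 of OVA/OVA DEX mice. The mice were BALB/c and 8 to 12 weeks old, and all were given the adjuvant Alhydrogel (1 mg) intraperitoneally on day 0. In OVA/OVA and OVA/OVA DEX mice the injection also held 50 μg of ovalbumin (OVA), the egg white protein used as allergen, and in PBS/PBS and PBS/OVA mice it held none. The intranasal challenge on days 12 to 15 was PBS in PBS/PBS mice and 10 μg of OVA in all others. OVA/OVA DEX mice also received the glucocorticoid dexamethasone at 3 mg/kg intraperitoneally from day 11, and lungs were taken 24 hours after the last challenge. OVA/OVA is thus the allergic group, and the comparisons ask how its lungs differ from each control and from treated lungs. The labels number the replicates without saying that each array holds a separate animal, so p-values measure only the spread between these arrays. Whole lung RNA mixes all cell types, and fewer cells of a type cannot be told apart from less RNA per cell.

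Values are log2 scaled signals, meaning the background-subtracted intensity of a miRNA divided by the 75th percentile of its array over the 206 miRNAs detected on every array. Differences passed when limma's Benjamini-Hochberg adjusted p was under 0.05. The comparisons share groups, so they are not independent of each other. Between 224 and 301 mouse miRNAs were detected on an array by the detection flag of Feature Extraction, the scanner software, and the summed signal before scaling ran from 251350 to 733489 in OVA/OVA and from 793227 to 940050 in PBS/PBS. Of the marker miRNAs of lung cell types, both endothelial strands of miR-126 and 5 of 6 epithelial markers were detected on every array. The neuronal miR-124-3p was detected on none, and the liver marker miR-122-5p was not detected on every array of any group. The striated muscle markers miR-1a-3p and miR-133a-3p were also detected on every array.

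MiR-146b-5p was higher in allergic lungs than in those of any other group, and treated lungs lay at the level of PBS/PBS lungs. Its log2 signal was 9.75 and 9.94 on the PBS/PBS arrays and 10.27, 10.61, 10.28 and 10.48 on the PBS/OVA arrays. On the 6 OVA/OVA arrays it ran from 10.71 to 11.01 with a median of 10.82. On the OVA/OVA DEX arrays it was 9.98, 9.75, 9.93 and 9.86. Every OVA/OVA array lay above every other array, every PBS/OVA array lay between the allergic and the remaining arrays, and PBS/PBS and OVA/OVA DEX overlapped. The mean was 10.85 ± 0.136 for the OVA/OVA group (SD, n = 6), 9.88 ± 0.099 under dexamethasone (SD, n = 4), 10.41 ± 0.168 for PBS/OVA (SD, n = 4) and 9.85 ± 0.138 for PBS/PBS (SD, n = 2).

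**Figure D1:**
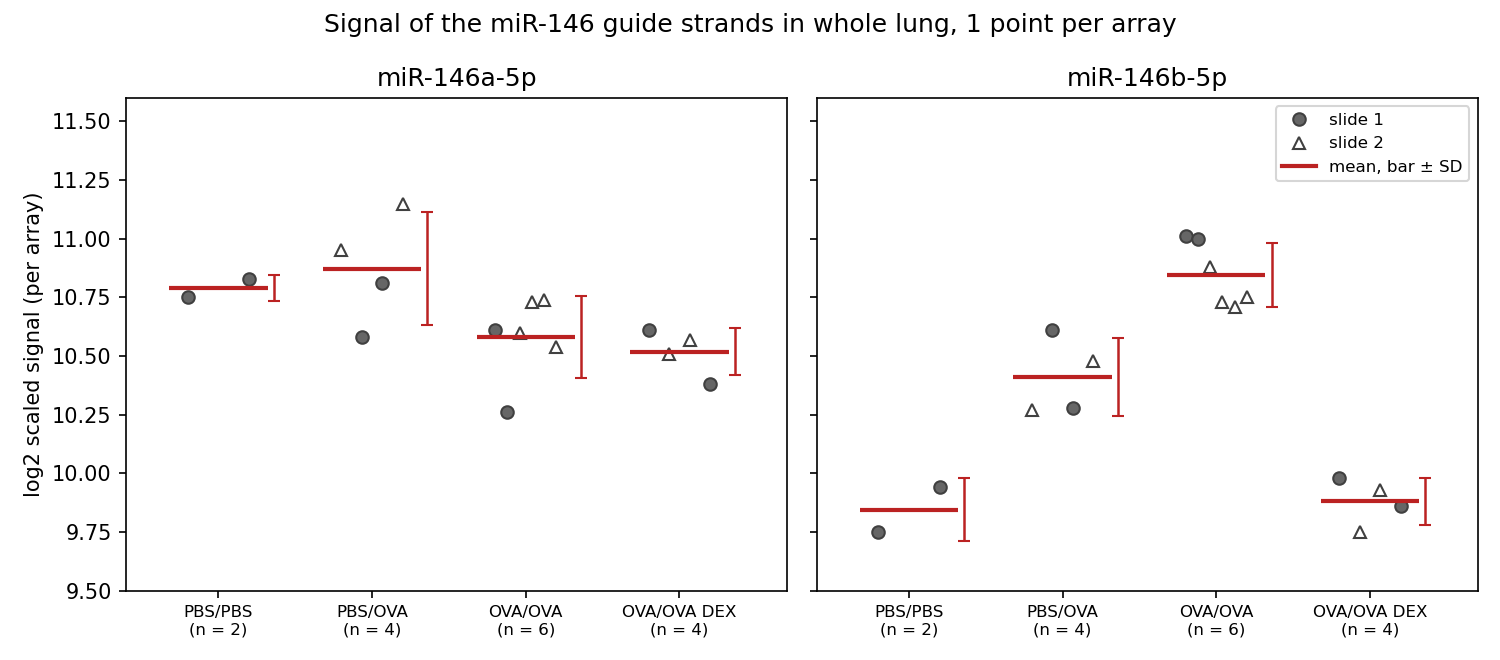
Log2 scaled signal of miR-146a-5p (left) and miR-146b-5p (right) on each array of the 4 groups, with filled circles for slide 1, open triangles for slide 2, a line at the group mean and a bar of ± 1 SD. For miR-146b-5p the 6 OVA/OVA arrays sit between 10.71 and 11.01, above all others, whereas the groups of miR-146a-5p lie close together.

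Against PBS/PBS, miR-146b-5p rose in OVA/OVA by a log2 difference of 1.00 (SE 0.116, limma adjusted p = 0.000194). The fold change was 2, with a 95% interval of 1.68 to 2.38. This was the smallest p of the 266 miRNAs, although its size ranked only 51. In this comparison 13.2% of the tested miRNAs passed as higher, 6.02% passed as higher with a change of at least 2-fold, and 25.9% had every OVA/OVA array above both PBS/PBS arrays. The margin over the 2-fold limit was within the error, and the value fell below it when single arrays were left out (0.90 to 1.10).

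Against OVA/OVA DEX, miR-146b-5p was higher in OVA/OVA by 0.97 (SE 0.0919, limma adjusted p = 1.58e-05), or 1.95-fold with a 95% interval of 1.7 to 2.24. Here too its p was the smallest of all miRNAs tested. Higher signal in OVA/OVA passed for 21.1% of the tested miRNAs in this comparison, and the arrays lay apart in that direction for 14.7%.  OVA/OVA DEX minus PBS/PBS was 0.03 (SE 0.123, limma adjusted p = 0.938) with a 95% interval of -0.23 to 0.30, or 0.852- to 1.23-fold. The interval leaves differences of that size possible, and it is not a limit of detection. In that comparison 0% of the miRNAs passed in either direction, and 18 had an unadjusted p under 0.05.

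PBS/OVA lungs, challenged with OVA but not sensitised to it, held an intermediate level. MiR-146b-5p was higher in OVA/OVA than in PBS/OVA by 0.44 (SE 0.0919, limma adjusted p = 0.00288), or 1.36-fold, a direction that turned without scaling (-0.08) and with scaling to control spots (-0.15). In that comparison 14.7% of the tested miRNAs passed as higher and 10.9% had all OVA/OVA arrays above all PBS/OVA arrays. PBS/OVA exceeded PBS/PBS by 0.56 (SE 0.123), or 1.48-fold, with all 4 arrays above both PBS/PBS arrays, as for 14.3% of the miRNAs tested. This difference ranked second by p but did not pass (limma adjusted p = 0.0637), in a comparison in which 0.376% of the miRNAs passed as higher and 0% as lower. It passed in 5 of 34 alternatives, among them the slide as a block (0.63, limma adjusted p = 0.0204) and the fit without PBS/OVA replicate 1 (0.61, adjusted p = 0.0376). It did not pass with quantile normalization (0.47, limma adjusted p = 0.653) or with only the compared groups (0.56, adjusted p = 0.475). Without scaling the difference was -0.02. OVA/OVA DEX minus PBS/OVA was -0.53 (SE 0.101, limma adjusted p = 0.00781). There 1.88% of the miRNAs passed as lower and 0.376% as higher, and 7.52% had every OVA/OVA DEX array below every PBS/OVA array.

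MiR-146a-5p did not pass in any of the 6 comparisons. Its log2 signal was 10.75 and 10.83 in PBS/PBS and 10.95, 10.58, 10.81 and 11.15 in PBS/OVA. On the OVA/OVA arrays it ran from 10.26 to 10.74 with a median of 10.61, and on the OVA/OVA DEX arrays it was 10.61, 10.51, 10.57 and 10.38. The OVA/OVA and OVA/OVA DEX arrays all lay below both PBS/PBS arrays, the former by a narrow margin, and every other pair of groups overlapped. All OVA/OVA arrays lay below both PBS/PBS arrays for 25.6% of the tested miRNAs, and all OVA/OVA DEX arrays did so for 8.27%.

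For miR-146a-5p, OVA/OVA minus PBS/PBS was -0.21 (SE 0.141, limma adjusted p = 0.272), with a 95% interval of -0.52 to 0.09, in a comparison in which 12% of the miRNAs passed as lower. OVA/OVA minus PBS/OVA was -0.29 (SE 0.112, limma adjusted p = 0.0597), with an interval of -0.53 to -0.05, where 16.9% passed as lower. OVA/OVA minus OVA/OVA DEX was 0.06 (SE 0.112, limma adjusted p = 0.673), with an interval of -0.18 to 0.30, whereas 32.3% of the miRNAs passed as lower in OVA/OVA there. OVA/OVA DEX lay at -0.27 (SE 0.15, limma adjusted p = 0.661) against PBS/PBS and at -0.35 (SE 0.122, limma adjusted p = 0.131) against PBS/OVA. The intervals were -0.60 to 0.05 and -0.62 to -0.09. Unlike the p-values, these intervals are not adjusted for the number of miRNAs tested. PBS/OVA minus PBS/PBS was 0.08 (SE 0.15, limma adjusted p = 0.997). In this fit, the upper ends of the 95% intervals for OVA/OVA stood at 1.07-fold over PBS/PBS and 1.23-fold over OVA/OVA DEX. These limits depend on the scaling. With scaling to the positive control spots the differences were -0.81 and -0.47. The difference from PBS/OVA passed as lower without PBS/OVA replicate 2 (-0.39, limma adjusted p = 0.0119), without OVA/OVA replicate 4 (-0.32, adjusted p = 0.0468) and without OVA/OVA replicate 5 (-0.32, adjusted p = 0.0438).

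**Figure D2:**
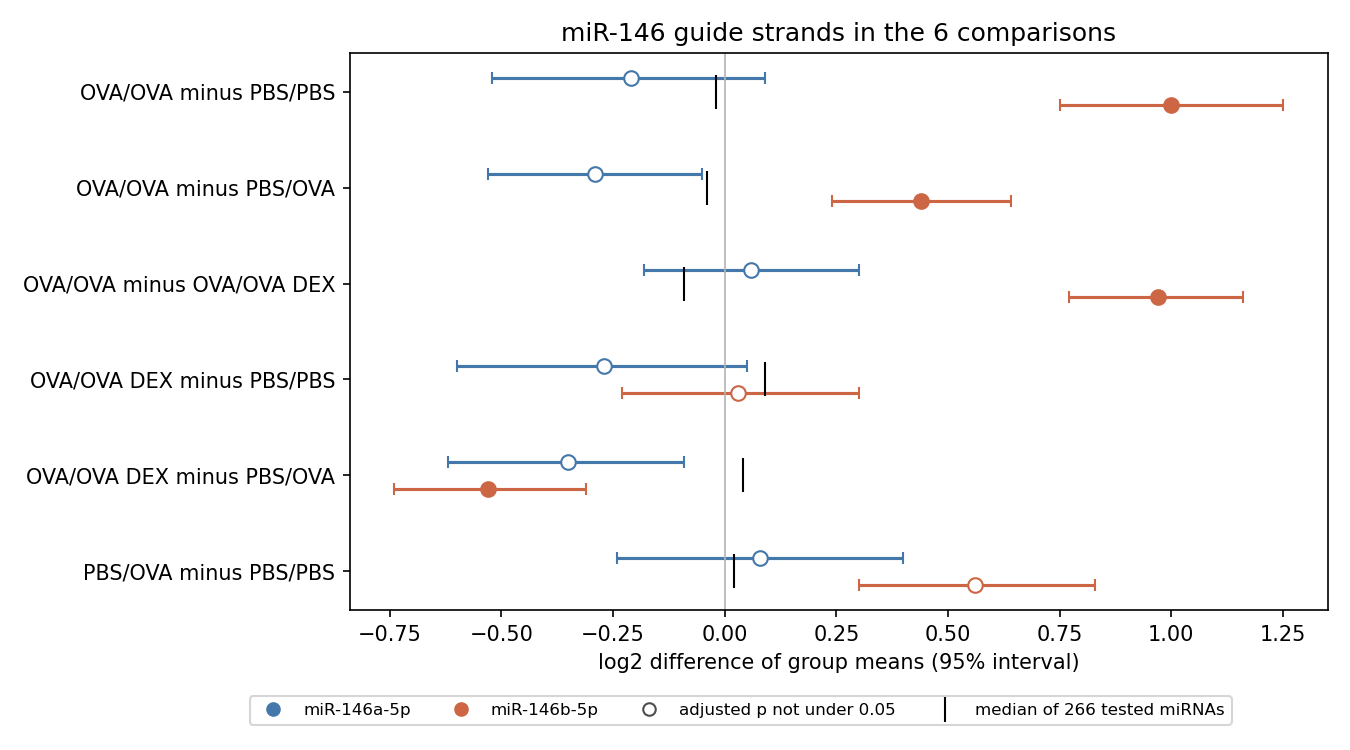
Log2 difference of group means with its 95% interval for both -5p strands in each of the 6 comparisons, with filled symbols where the limma adjusted p was under 0.05 and a vertical tick at the median of the 266 miRNAs tested. MiR-146b-5p lies at 1.00 and 0.97 for OVA/OVA against PBS/PBS and OVA/OVA DEX, whereas all symbols of miR-146a-5p are open.

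The unequal behaviour of both strands was examined within each array, where scaling between arrays has no part. The log2 ratio of miR-146b-5p to miR-146a-5p was set to 0 at its PBS/PBS mean, since the probes of different miRNAs cannot be compared in level. On that scale the PBS/PBS arrays lay at -0.06 and 0.06 and the PBS/OVA arrays at 0.27, 0.98, 0.41 and 0.28. The OVA/OVA arrays ran from 0.91 to 1.69 with a median of 1.19, and the OVA/OVA DEX arrays lay at 0.31, 0.19, 0.30 and 0.42. All OVA/OVA arrays exceeded all PBS/PBS and OVA/OVA DEX arrays, and PBS/OVA replicate 2, with the highest miR-146b-5p and the lowest miR-146a-5p of its group, reached into the OVA/OVA range.

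The balance had shifted towards miR-146b-5p in OVA/OVA by 1.21 (SE 0.131) over PBS/PBS, by 0.73 (SE 0.205) over PBS/OVA and by 0.91 (SE 0.126) over the dexamethasone group. By exact two-sided permutation tests over arrays the p-values were 0.0714, 0.0286 and 0.00952, which became 0.143, 0.0857 and 0.0571 when adjusted over the 6 comparisons. None therefore passed after adjustment, and the first and the third are the smallest that 2 against 6 and 4 against 6 arrays can give. A limma fit of the same ratio over all arrays, which estimates 1 spread for all groups, gave adjusted p-values of 0.000211, 0.00102 and 0.000211. In OVA/OVA DEX the ratio lay 0.31 (SE 0.0778) above PBS/PBS, in PBS/OVA 0.48 (SE 0.18) above it, and OVA/OVA DEX minus PBS/OVA was -0.17 (SE 0.176). The exact p-values of these 3 were 0.133, 0.133 and 0.486, and 2 against 4 arrays cannot give a p below 0.133. Without PBS/OVA replicate 2, PBS/OVA minus PBS/PBS fell to 0.32 and OVA/OVA DEX minus PBS/OVA was -0.01. The shift in OVA/OVA had the same direction within each slide, and the OVA/OVA arrays did not overlap those of any other group. Within slide 1, with 2 arrays per group, the shift was 1.52 over PBS/PBS, 0.82 over PBS/OVA and 1.15 over the dexamethasone group. PBS/OVA and OVA/OVA DEX also lay above PBS/PBS there without overlap, by 0.69 and 0.37. Within slide 2, which held no PBS/PBS array, the OVA/OVA shift was 0.79 over PBS/OVA and 0.82 over the dexamethasone group (4 against 2 arrays). How often other pairs of miRNAs separate in this way was not tested.

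**Figure D3:**
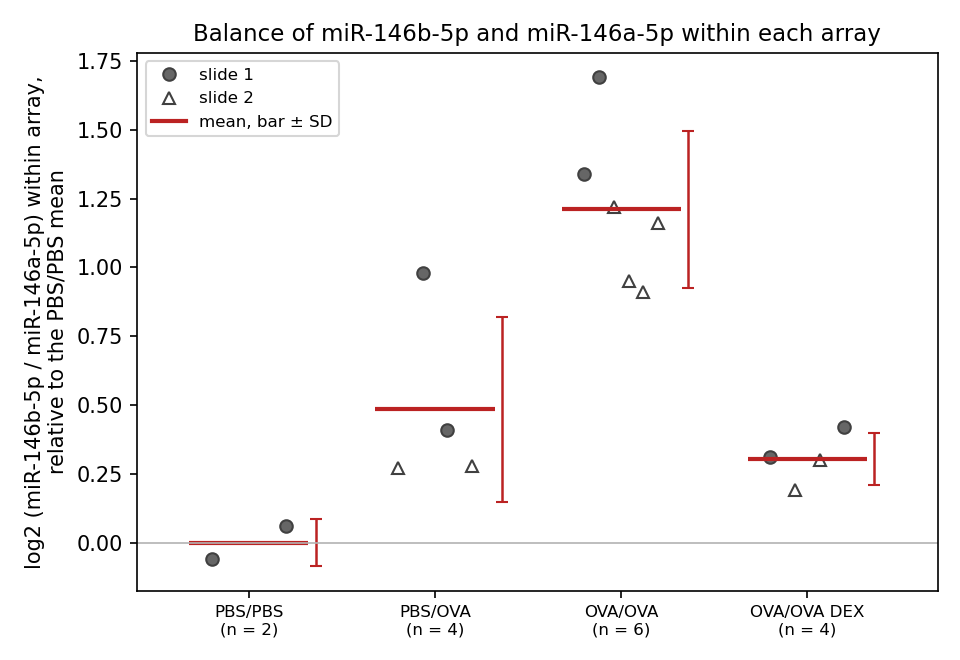
Log2 ratio of miR-146b-5p to miR-146a-5p within each array, relative to the PBS/PBS mean, with filled circles for slide 1, open triangles for slide 2, a line at the group mean and a bar of ± 1 SD. The OVA/OVA arrays lie between 0.91 and 1.69 and the OVA/OVA DEX arrays between 0.19 and 0.42.

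Whether the shift is read as a rise of miR-146b-5p or a fall of miR-146a-5p depended on how arrays were made comparable. Before scaling, miR-146b-5p gave 1321 and 1837 intensity units on the PBS/PBS arrays and 1435 to 1643 on those of PBS/OVA. On the OVA/OVA arrays it gave 827 to 2791 with a median of 1358, and on the dexamethasone arrays 808 to 982. MiR-146a-5p gave 2649 and 3386 with PBS alone, 1528 to 2421 after challenge alone, 713 to 2366 (median 1043) in allergic lungs and 1258 to 1642 in treated ones. Allergic lungs thus overlapped PBS/PBS for miR-146b-5p and lay below it for miR-146a-5p. Without scaling, OVA/OVA minus PBS/PBS was -0.10 for miR-146b-5p (limma adjusted p = 0.871) and -1.31 for miR-146a-5p (adjusted p = 0.0201), while the median of all tested miRNAs stood at -1.11. With scaling to the positive control spots, the values were 0.40 (adjusted p = 0.209) and -0.81 beside a median of -0.61. These scalings shift all miRNAs of an array alike and so leave the distance from the median of all miRNAs nearly unchanged, at 1.02 for miR-146b-5p and -0.19 for miR-146a-5p. Normexp background correction, which adds an offset of 50 intensity units to every spot before scaling, does not. Under it the distances were 0.38 and -0.76 beside a median of 0.54, while the differences themselves were 0.92 and -0.21. How far the offset moved the median was not tested.

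Against PBS/OVA, the miR-146b-5p difference under these scalings had adjusted limma p-values of 0.878 and 0.61. Against OVA/OVA DEX, it was 1.05 above the median of all miRNAs under the main scaling and 0.72 above it with normexp. The difference itself was 0.68 without scaling (limma adjusted p = 0.197) and 0.43 with control spots (adjusted p = 0.086). Quantile normalization gave 1.00 against OVA/OVA DEX and 0.98 against PBS/PBS, close to the main values.

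**Figure D4:**
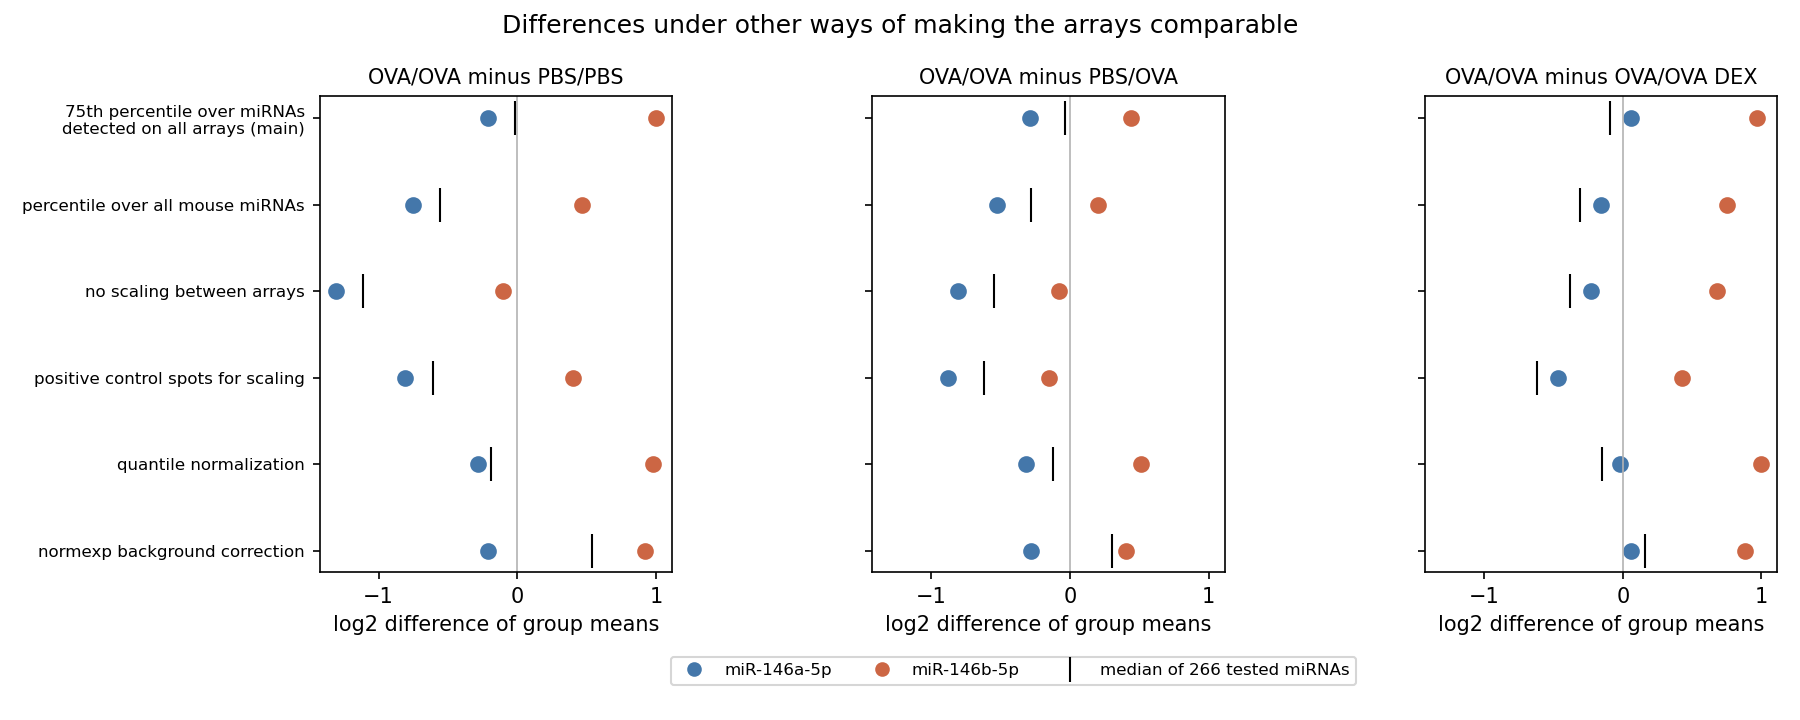
Log2 differences of both -5p strands in the 3 comparisons with OVA/OVA, one row for each way of making arrays comparable, with a vertical tick at the median of the 266 miRNAs tested. Without scaling both strands and the median lie further left, with the tick at -1.11 for OVA/OVA minus PBS/PBS, and miR-146b-5p lies to the right of miR-146a-5p in every row.

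Each -5p strand was read by 2 probes of 10 spots, and all 20 spots were well above background on every array, with none saturated. Both probes of miR-146b-5p were higher in OVA/OVA, by 0.81 and 1.05 over PBS/PBS, by 0.29 and 0.47 over PBS/OVA, and by 0.84 and 1.00 over the dexamethasone group. The arrays lay apart for both probes except for the first probe against PBS/OVA. The probes of miR-146a-5p gave -0.21 and -0.22, then -0.29 and -0.28, then 0.09 and -0.03 in the same comparisons, with overlap in each case. Probe sequences are not used here, and how much signal the near-identical strands lend to each other's probes was not tested.

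Both PBS/PBS arrays lay on slide 1, and each slide held arrays of the other 3 groups. Within slide 1, miR-146b-5p differed by 1.16 between OVA/OVA and PBS/PBS (limma adjusted p = 0.00634) and by 1.09 between OVA/OVA and OVA/OVA DEX (adjusted p = 0.00854). Within slide 2 the latter difference was 0.93 (adjusted p = 0.00421). OVA/OVA minus PBS/OVA was 0.56 and 0.39 within slides 1 and 2 and did not pass on either (limma adjusted p = 0.0815 and 0.088).

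MiR-146b-3p, the opposite strand of the miR-146b hairpin, was read by 4 probes of 5 spots. Between 0 and 1 of its 20 spots were well above background on an array, and it was detected only on OVA/OVA replicate 4. Its unscaled signal there was 11.5 intensity units, and on the other arrays it ran from -9.47 to 3.31. No comparison between groups was made for it.

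Among 16 other miRNAs tied to NF-κB or Toll-like receptor signalling, 13 were tested, and miR-9-5p, miR-147-3p and miR-187-3p were detected on no array. Of the 13, 4 were higher and 3 lower in OVA/OVA than in OVA/OVA DEX, against 21.1% and 32.3% of all tested miRNAs. The median difference of the 13 was 0.04, beside -0.09 over all miRNAs. MiR-155-5p, which is induced in activated lymphocytes and myeloid cells, was higher in OVA/OVA by 2.60 over OVA/OVA DEX (SE 0.269, limma adjusted p = 1.58e-05), by 1.99 over PBS/PBS (SE 0.34, adjusted p = 0.0018) and by 1.87 over PBS/OVA (SE 0.269, adjusted p = 0.000336). MiR-21-5p, a miRNA induced in many inflamed tissues, was higher by 1.45 (SE 0.178, limma adjusted p = 4.19e-05), 1.48 (SE 0.225, adjusted p = 0.000758) and 0.92 (SE 0.178, adjusted p = 0.00159) in the same order. MiR-132-3p and miR-223-3p also passed as higher than in OVA/OVA DEX, at 0.66 and 0.51, and miR-10a-5p, miR-125a-5p and miR-125b-5p passed as lower, at -0.51, -0.28 and -0.27. Against PBS/PBS, 3 passed as higher (miR-155-5p, miR-21-5p and miR-223-3p) and 1 as lower (miR-125b-5p), where 13.2% and 12% of all tested miRNAs did so. Against PBS/OVA, 3 passed in each direction, beside 14.7% of all miRNAs as higher and 16.9% as lower. In the comparisons without OVA/OVA 0 of the 13 passed, and at most 1.88% of all miRNAs passed in any direction there.

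Under the main scaling, the 5 listed markers of blood-derived (haematopoietic) cells were higher in OVA/OVA than in each other group, as was miR-146b-5p. The red cell markers and the lymphocyte marker miR-181a-5p went the other way. Without scaling, the median of all tested miRNAs in OVA/OVA minus PBS/PBS stood at -1.11. The direction of the smaller haematopoietic differences thus depends on the scaling, and their values under other scalings are not given here. All 5 haematopoietic markers were detected on every array, and their summed scaled signal was 32835 to 48269 on the OVA/OVA arrays, 18401 to 27130 under dexamethasone, 16251 to 24169 after challenge alone and 20842 and 23445 with PBS alone. Against PBS/PBS, miR-223-3p, a miRNA of granulocytes and other myeloid cells, passed as higher at 1.22, as did miR-142-3p at 0.92 and miR-342-3p at 0.45. MiR-142-5p, at 0.47, and the lymphocyte miRNA miR-150-5p, at 0.30, did not pass. Of all tested miRNAs 13.2% passed as higher in that comparison. Against PBS/OVA all 5 passed as higher, at 0.32 to 1.12, beside 14.7% of all miRNAs. Against OVA/OVA DEX, miR-142-3p, miR-342-3p, miR-142-5p and miR-223-3p passed at 1.05, 0.90, 0.57 and 0.51, and miR-150-5p stood at 0.44, beside 21.1% of all miRNAs that passed as higher. The part of blood-derived cells in the miR-146b-5p result was not tested.

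In PBS/OVA minus PBS/PBS, where miR-146b-5p stood at 0.56, the 5 markers ranged from -0.26 to 0.13. In OVA/OVA DEX minus PBS/OVA, where miR-146b-5p stood at -0.53, miR-342-3p was at -0.58 (limma adjusted p = 0.00781) and miR-223-3p at 0.61 (adjusted p = 0.0677). MiR-142-3p, miR-142-5p and miR-150-5p lay in between, at -0.02, 0.09 and 0.13. Other cell type lists also differed between allergic and treated lungs. The red cell markers miR-451 and miR-144-3p summed to 36986 to 70438 in the former and 100092 to 136112 in the latter, and the endothelial pair to 30554 to 40853 and 40697 to 48460, with all 4 passing as lower in OVA/OVA, as did 32.3% of all tested miRNAs. Both smooth muscle markers, miR-143-3p at -0.31 and miR-145-5p at -0.45, and the striated muscle marker miR-133a-3p at -0.88 also passed as lower, and miR-1a-3p stood at -0.81. Of the ciliated cell markers, miR-449a-5p passed as higher at 2.04, and miR-34b-5p and miR-34c-5p passed as lower at -0.28 and -0.36. Of the 5 epithelial markers tested, miR-200c-3p passed as higher at 0.25 and miR-200a-3p as lower at -0.27, and the lymphocyte marker miR-181a-5p passed as lower at -0.43. Against PBS/PBS, miR-133a-3p passed as lower in OVA/OVA at -1.13 (limma adjusted p = 0.0226), and miR-1a-3p did not pass at -1.02 (adjusted p = 0.0824). There miR-34b-5p and miR-34c-5p also passed as lower, at -0.35 and -0.34, as did 12% of all tested miRNAs. MiR-200c-3p passed as higher at 0.36, beside 13.2% of all tested miRNAs. The part of these cell types in the result was not tested.

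**Figure D5:**
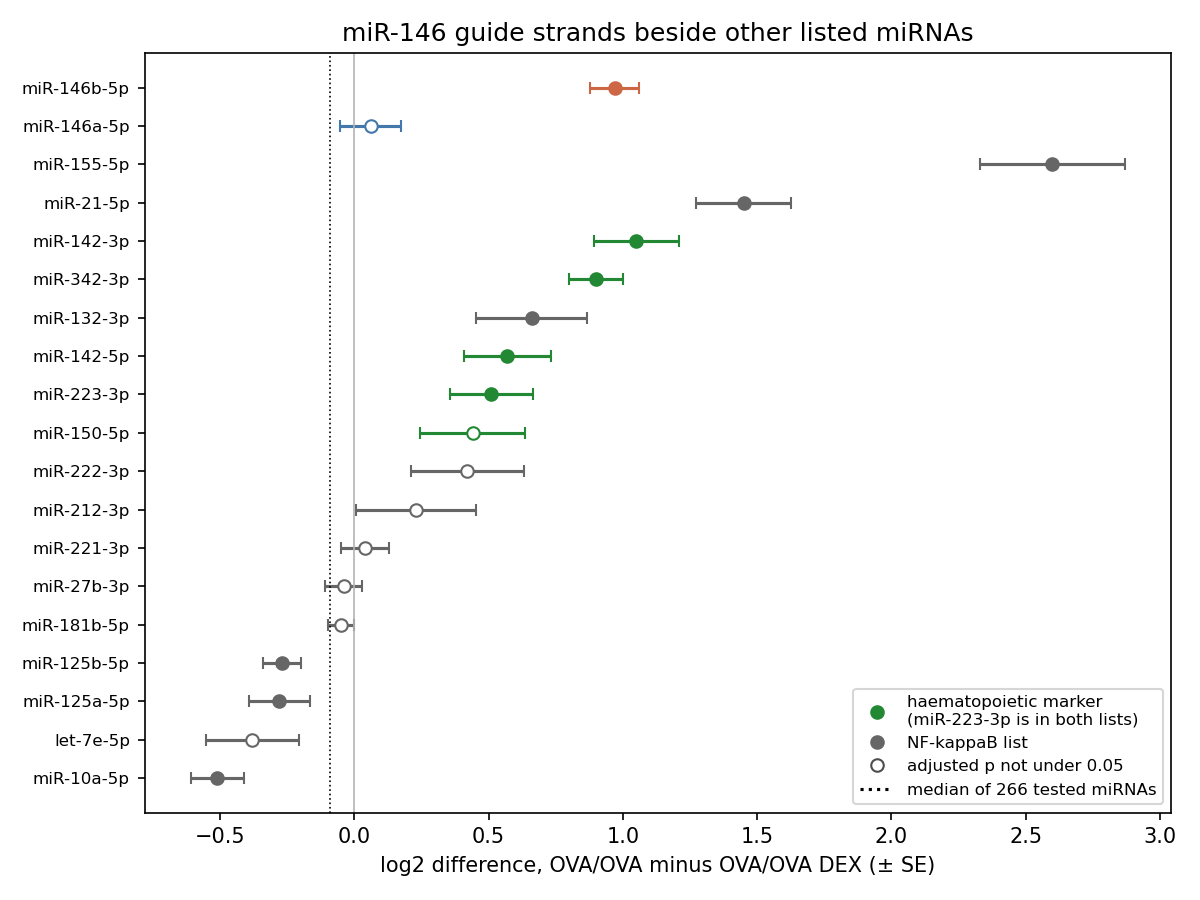
Log2 difference between OVA/OVA and OVA/OVA DEX with its SE for both miR-146 strands and for the tested miRNAs of the NF-κB list (grey) and the haematopoietic list (green), with open symbols where the limma adjusted p was not under 0.05 and a dotted line at the median of all tested miRNAs. MiR-146b-5p at 0.97 lies among the haematopoietic markers miR-142-3p and miR-342-3p and below miR-155-5p at 2.60.

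Ranked by Pearson's r over the 16 arrays, miR-21-5p had the profile most like that of miR-146b-5p among all tested miRNAs (r = 0.959, Spearman rho = 0.953), followed by miR-135b-5p (r = 0.939), miR-135a-1-3p (r = 0.932), miR-877-5p (r = 0.929, with a higher rho of 0.971) and miR-680 (r = 0.917). The arrays share groups and scaling, so these values are a description. MiR-21-5p shared with miR-146b-5p a difference of 0.56 between PBS/OVA and PBS/PBS and one near 0 between OVA/OVA DEX and PBS/PBS (0.04), but its difference between OVA/OVA and PBS/PBS was larger, at 1.48. MiR-135b-5p stood at 1.81 in PBS/OVA minus PBS/PBS and at 0.41 in OVA/OVA minus PBS/OVA. The profiles most like miR-146a-5p were those of miR-542-3p (r = 0.719), miR-103-3p (r = 0.714), miR-107-3p (r = 0.681), miR-181d-5p (r = 0.675) and miR-335-5p (r = 0.646). All 5 lay between -0.54 and -0.08 in OVA/OVA minus PBS/PBS. The miR-146 strands themselves had r = -0.107 (rho = -0.0912) with each other over the 16 arrays.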

How the data were processed

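The authors deposited the scanner output of 16 arrays, in which Agilent Feature Extraction 10.7.3.1 gives each spot's background-subtracted intensity without normalization between arrays, together with processed log2 values, used here as an alternative. The median subtracted background per array (35.3 to 42.3) was not the local background (24 to 27). Spots with an outlier flag were dropped, spots averaged per probe, and probes summed per miRNA. Signals were divided by the 75th percentile of the array, taken from 206 miRNAs that every array detected, raised to a floor of 2.6 and log2 transformed. The 4 groups were fitted with limma 3.58.1 (R 4.3.3), and p-values were adjusted by Benjamini-Hochberg over 266 miRNAs, those that all arrays of 1 or more groups detected. The fit was tested on simulated data. Ratios within arrays were compared by exact permutation (Python 3.11.15, numpy 2.4.6, scipy 1.17.1, pandas 2.3.3, matplotlib 3.10.9). Named were all miR-146 members, miR-155-5p, miR-21-5p, the called miRNAs of the NF-κB list, the haematopoietic markers and the 5 most correlated miRNAs, and others of these lists were added after their values were seen. Members and lists were chosen with earlier results of these data known. The number of arrays limits the precision. The methods and the labels describe the PBS/PBS challenge differently, and the labels were followed.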

Additional observations from a re-analysis of the deposited data

Results flagged for a closer look

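MiR-146b-3p stood out on OVA/OVA replicate 4, where its log2 scaled signal was 3.04, whereas the other 5 OVA/OVA arrays were at the floor of 1.38. Because the others share the floor, the gap equals the whole range of the group (1.65) and exceeds the critical value of Dixon's test by construction. It was 1 of 10 groups of arrays tested in this way, and chance flags about 1 in 20.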

How the results depend on the processing

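Values are log2 differences, and 3 other scalings, in this order, are the percentile over all mouse miRNAs, none at all, and the positive control spots. For miR-146b-5p, OVA/OVA minus PBS/PBS was 0.47, -0.10 and 0.40 under them, and none of these passed. By the methods' exact Mann-Whitney test (1.00) it could not pass, since 2 against 6 arrays give no p below 0.0714. OVA/OVA minus PBS/OVA was 0.20, -0.08 and -0.15 under the 3 other scalings and 0.56 and 0.39 within slides 1 and 2, and none passed. OVA/OVA minus OVA/OVA DEX no longer passed without scaling (0.68) or with control spots (0.43). OVA/OVA DEX minus PBS/OVA no longer passed at -0.55, -0.75 and -0.58 under the 3 scalings, -0.49 with quantile normalization, -0.52 and -0.53 within slides 1 and 2, and -0.53 by the Mann-Whitney test, whose unadjusted exact p was 0.0286, the smallest for 4 against 4 arrays. OVA/OVA DEX minus PBS/PBS changed sign at -0.28, -0.77, -0.03 and, with quantile normalization, -0.03. PBS/OVA minus PBS/PBS was -0.02 without scaling, and passed at 0.56 with the total gene signal, with the filter on all arrays and with limma's trend, and at 0.63 with the slide block.

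For miR-146a-5p, OVA/OVA minus PBS/PBS passed at -0.75 with the percentile over all miRNAs and at -1.31 without scaling. OVA/OVA minus PBS/OVA passed at -0.88 with control spots, -0.33 with the slide block, and -0.29 with the filter on all arrays and with limma's trend. OVA/OVA minus OVA/OVA DEX changed sign at -0.16, -0.23 and -0.47 under the 3 scalings, -0.02 with quantile normalization and -0.06 within slide 1. PBS/OVA minus PBS/PBS did so at -0.21 and -0.50 under the first 2, -0.02 with the slide block and -0.10 within slide 1. The scalings shift all miRNAs of an array alike, and the cause of the other changes was not tested.

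The ratio within arrays passed with the limma fit (1.21 for OVA/OVA minus PBS/PBS, 0.73 minus PBS/OVA and 0.91 minus OVA/OVA DEX) and with the slide block (1.44, 0.79 and 0.96, and 0.48 and 0.65 for OVA/OVA DEX and PBS/OVA minus PBS/PBS).

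After removal of group means, correlations of same-numbered arrays ran from -0.793 to 0.403, and 3 of 18 exceeded 0.1. Those of the 74 other pairs ran from -0.729 to 0.828. These values showed no pairing by replicate number, though they cannot exclude one. With the replicate block, the miR-146b-5p difference was 1.10 for OVA/OVA minus PBS/PBS. For OVA/OVA DEX minus PBS/OVA it no longer passed (-0.53, limma adjusted p = 0.0531). The ratio passed at 1.40, 0.82, 0.99 and, for PBS/OVA minus PBS/PBS, 0.58.

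When each array was left out in turn, miR-146b-5p passed 16 of 16 times in OVA/OVA against each other group (0.90 to 1.10 for PBS/PBS, 0.39 to 0.51 for PBS/OVA, 0.92 to 1.00 for OVA/OVA DEX) and in OVA/OVA DEX minus PBS/OVA (-0.58 to -0.46). PBS/OVA minus PBS/PBS ran from 0.46 to 0.66 and OVA/OVA DEX minus PBS/PBS from -0.06 to 0.13. For miR-146a-5p, OVA/OVA minus PBS/OVA ran from -0.39 to -0.20 and passed 3 times, and PBS/OVA minus PBS/PBS ran from -0.01 to 0.18. The ratio of both strands ran from 0.32 to 0.55 for PBS/OVA minus PBS/PBS and from -0.25 to -0.01 for OVA/OVA DEX minus PBS/OVA, with 0.32 and -0.01 without PBS/OVA replicate 2. A lone PBS/PBS array is then assumed to vary like the other groups. Without scaling, 0 members of the NF-κB list passed as higher and 6 as lower in OVA/OVA minus PBS/PBS, against 6 and 2 with normexp background correction, and 2 as higher and 0 as lower in OVA/OVA minus OVA/OVA DEX.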

Other observations

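On OVA/OVA replicate 4, the processed table that the authors deposited holds a log2 value of 3.3 for miR-146b-3p, which is also its value for miR-146b-5p on that array. The scanner file's total signal for miR-146b-3p, 3.54, corresponds to -5.48 on the scale of the table. On the other 15 arrays the table holds the array's minimum for miR-146b-3p, between -7.7 and -5.7. The cause was not tested.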
